A study of Mus musculus with 31 samples.

Results

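Mice of the C3H/HeJ strain with established AA (taken to be alopecia areata) had their skin treated topically with an inhibitor named jak1i or jak3i, and the question was which immune and skin changes last to 24 weeks and which return. The comparison used 10 of the 31 arrays of the study, chosen by their titles: 4 arrays at 24 weeks (2 of jak1i and 2 of jak3i) against 6 at 12 weeks (3 of each). Both arms entered with equal weight, so the late change is the mean over jak1i and jak3i of 24 weeks minus 12 weeks. For reference, the 6 arrays of the same arms at 0 weeks and the 3 PBS control arrays at 12 weeks are given. All groups share the strain, the tissue and established disease. The compounds are known only by these codes, and dose, age, sex, disease score and whether the same mice were followed over time are not given in the sources used here. The labels give 24 as a treatment time. PBS at 24 weeks was not analysed here, so treatment and the passing of time cannot be told apart in the late change. Replicates are biological per the series text. The p-values rest on the spread between samples of the same group, pooled over all 31 arrays. That pool includes groups that are neither compared nor given for reference here, so it is not the spread of the 10 compared arrays alone.

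Alopecia areata is an autoimmune loss of hair in which CD8 T cells that carry the NKG2D receptor gather around the growing hair follicle. These cells release interferon gamma, and follicle cells answer with MHC molecules, CXCR3 ligands and interleukin 15, which keeps the T cells active. Interferon gamma signals through JAK1 and JAK2, and interleukin 15 through JAK1 and JAK3, so Janus kinase inhibitors act on both sides of this loop. The follicle also cycles on its own between growth, regression and rest, and hair shaft keratins, skin fat and dividing cells rise and fall with that cycle. In whole skin, fewer cells of a type and less RNA per cell cannot be told apart.

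Values are log2 expression, so a difference of 1 is 2-fold, and the standard error (SE) and the adjusted p come from limma over all 18193 genes. The tissue label fitted the markers: across the 10 arrays the keratinocyte gene Krt14 stood between 13.29 and 13.81 and the fibroblast gene Dcn between 13.45 and 13.85. Lymphocyte and hair markers were the ones that spread, with the killer cell gene Gzma between 4.78 and 9.49 and the hair keratin Krt31 between 5.76 and 9.85. The muscle gene Acta1 stood between 13.36 and 14.22, so each piece held skeletal muscle.

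From 12 to 24 weeks, genes of T cells, of killer cells and of MHC class II rose in the inhibitor arms. Of 18193 genes, 27 rose (0.148%) and 2 fell (0.011%) at an adjusted p under 0.05, and 11 of these 29 changed at least 2-fold. An unadjusted p under 0.05 was reached by 959 genes upward and 423 downward, and the median over all genes was 0.03. Irrespective of the test, 600 genes (3.3%) had every 24-week array above every 12-week array of the same arm in both arms, and 295 (1.62%) had every one below. Among the 29 called genes 25 showed no overlap in either arm. The 29 were picked on the same difference, and the rule for naming genes also asked for no overlap. Lack of overlap in a called gene is therefore a description and adds no support to its call.

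The calls rested on few arrays. Leaving out 1 array left 0 calls without replicate 1 or replicate 3 of jak1i at 12 weeks, 0 without replicate 1 of jak3i at 12 weeks, and 1 without replicate 1 of either arm at 24 weeks. There were 7 calls without replicate 2 of jak1i at 24 weeks, 9 and 17 without replicates 3 and 2 of jak3i at 12 weeks, and 92 without replicate 2 of jak3i at 24 weeks. With the mean of the hair shaft keratin list as a covariate 11 genes were called, 10 of them among the 29, and a fit to the 10 arrays alone called 3 genes, 0 of them among the 29.

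The T cell genes stood above their 12-week level in both arms at 24 weeks. Cd3d encodes a signalling chain of the T cell receptor. In jak1i it stood at 7.01, 7.27 and 7.08 at 12 weeks and at 7.92 and 7.60 at 24 weeks. In jak3i it stood at 6.63, 7.02 and 6.93 at 12 weeks and at 8.75 and 7.79 at 24 weeks. The 24-week arrays lay above all 12-week arrays, and the mean difference of 1.02 (SE 0.16, adjusted p = 0.0216) is 2.03-fold, with a 95% interval from 1.61 to 2.57. At 0 weeks jak1i had 8.61, 8.77 and 8.29, jak3i had 7.66, 8.15 and 7.50, and PBS at 12 weeks had 8.36, 8.04 and 8.65. The 24-week arrays of jak1i thus lay below its own 0-week arrays, while those of jak3i reached into and above them.

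**Figure D1:**
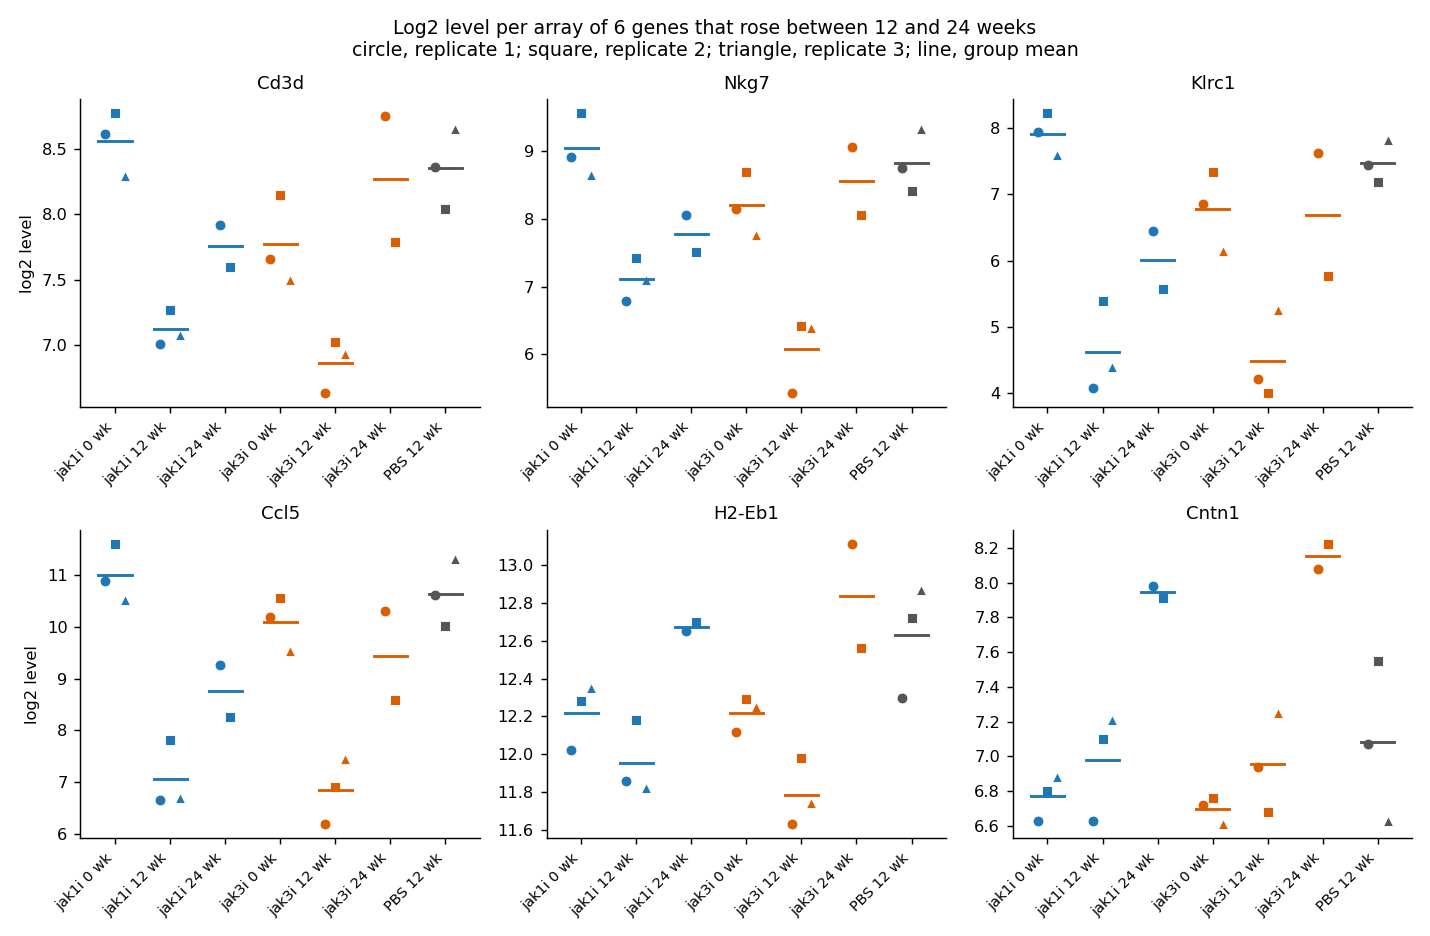
Log2 expression (vertical axis) of 6 genes on each array, by arm and week (horizontal axis), with circle, square and triangle for replicates 1, 2 and 3 and a line at the group mean. The T cell gene Cd3d, the killer cell genes Nkg7 and Klrc1 and the chemokine Ccl5 drop from 0 to 12 weeks and stand higher again at 24 weeks, whereas Cntn1 is high at 24 weeks alone, between 7.91 and 8.22.

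Of the 20 listed genes of the T cell receptor and its coreceptors, 18 had a probe set named for them alone. In the late change 5 of the 18 rose (Cd3d, Cd2, Trat1, Cd27 and Skap1), against 0.148% of all genes. Of the 18, 0 fell, and the median was 0.61. All 18 differences were above 0, and 10 members lay higher without overlap in both arms, against 3.3% of all genes. Cd2, an adhesion receptor of T cells, changed by 1.11 (SE 0.23, adjusted p = 0.046), from 6.16, 6.63 and 6.53 to 7.29 and 6.88 in jak1i and from 5.68, 5.99 and 6.05 to 8.02 and 6.97 in jak3i. Its 24-week values again exceeded all 12-week values of the same arm. Skap1, an adaptor of T cell adhesion, changed by 0.95 (adjusted p = 0.0455), and Cd27, a costimulatory receptor, by 0.67 (adjusted p = 0.0356). The late differences of the 3 probe sets of Skap1 ran from 0.33 to 0.95. The number of listed members that rose was 0 without replicate 1 of either arm at 24 weeks, 2 without replicate 2 of jak1i and 8 without replicate 2 of jak3i.

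On the probe sets used, the coreceptors did not return evenly. Cd8b1, a chain of the CD8 coreceptor, had a late difference of 1.06 (adjusted p = 0.243) and Cd8a one of 0.69 (adjusted p = 0.397), neither past the threshold. Cd8a had 5 probe sets with late differences from 0.08 to 1.68, and 1 of them passed when all probe sets were tested. On the probe sets used, Cd8b1 and Cd8a fell from 0 to 12 weeks, by 2.36 and 1.68. They were still below the start at 24 weeks, at −1.30 and −0.99. Cd4, the helper cell coreceptor, had differences of −0.11 at 12 weeks and 0.08 at 24 weeks against the start, both short of the threshold. Trat1, which stabilises the receptor complex, was the reverse case: it did not pass the threshold at 12 weeks against the start (−0.19) and stood above the start at 24 weeks, at 0.75 (adjusted p = 0.00592). With Cd247, another receptor chain, it made 2 of 18 listed genes above the start, a share near the 12.1% of all genes. That count was 1 without replicate 2 of jak1i at 24 weeks and 0 without that of jak3i. The 2 probe sets of Trat1 had late differences of 0.19 and 0.94, and the values given are those of the latter.

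Further genes of T cells outside that list rose. Ms4a4b, a membrane protein of T cells, had the largest late difference among the named genes past the threshold, at 2.23 (SE 0.41, adjusted p = 0.0328), or 4.69-fold. In jak1i it went from 5.85, 7.26 and 5.55 to 8.33 and 7.84, and in jak3i from 5.48, 6.20 and 6.76 to 9.79 and 7.70, without overlap. Ikzf3, a transcription factor of lymphocytes, changed by 1.29 (adjusted p = 0.0363), Spn, the sialophorin of leukocytes, by 0.92 (adjusted p = 0.0421) and Sit1, an adaptor that damps receptor signals, by 0.68 (adjusted p = 0.0455). Another probe set of Ms4a4b had a difference of 0.28 and was not called. The late differences of the 3 probe sets of Ikzf3 ran from 0.08 to 1.29, and the 2 of Spn had 0.44 and 0.92. Of each gene 1 probe set passed when all probe sets were tested.

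Of the killer cell genes, Nkg7 and Ctsw passed the threshold in the late change and the granzymes did not, with no test of a difference between these genes. Nkg7, a granule membrane protein, stood in jak1i at 6.79, 7.43 and 7.10 at 12 weeks and at 8.06 and 7.51 at 24 weeks. In jak3i it stood at 5.42, 6.41 and 6.39 and then at 9.06 and 8.06. The difference of 1.59 (SE 0.26, adjusted p = 0.0216) is 3-fold, and the groups did not overlap in either arm. Ctsw, a cysteine protease of killer cells, changed by 1.37 (SE 0.25, adjusted p = 0.0324). These were the 2 of 14 measured cytotoxic effectors that rose in the late change, against 0.148% of all genes, and the list's median was 0.63. The count was 0 without replicate 1 of either arm at 24 weeks, 1 without replicate 2 of jak1i and 4 without replicate 2 of jak3i.

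The granzymes, which kill the target cell once inside it, varied more between the 24-week arrays. Gzma went from 5.60, 7.39 and 5.38 to 8.13 and 5.55 in jak1i and from 4.78, 5.05 and 5.82 to 9.49 and 6.56 in jak3i. Gzmb went from 4.76, 6.18 and 4.91 to 8.94 and 5.32 and from 5.12, 4.99 and 6.90 to 8.57 and 6.14. In jak1i the lower 24-week array of each gene lay among the 12-week arrays. The late differences of 1.76 and 1.77 were not past the threshold (adjusted p = 0.36 and 0.378). Against the start both granzymes were lower at 24 weeks, at −3.10 (adjusted p = 0.00281) and −2.86 (adjusted p = 0.00494), after −4.86 and −4.63 at 12 weeks. Prf1, the pore former, and Fasl, a death ligand, were also below the start at 24 weeks, at −0.70 and −1.20, and these 4 were the cytotoxic effectors that passed there. That count of 4 of 14, against 3.51% of all genes, was 0 without replicate 2 of jak1i or of jak3i at 24 weeks.

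Among receptors of the NK family, Klrc1 and Klrd1 passed the threshold. Klrc1 encodes NKG2A, an inhibitory receptor of NK cells and activated CD8 T cells, and Klrd1 encodes its partner CD94. Klrc1 went from 4.08, 5.40 and 4.40 to 6.45 and 5.58 in jak1i and from 4.21, 4.0 and 5.26 to 7.62 and 5.77 in jak3i, a difference of 1.80 (SE 0.34, adjusted p = 0.0421) with no overlap. Klrd1 changed by 1.62 (SE 0.32, adjusted p = 0.0421). The 2 probe sets of Klrc1 had late differences of 0.73 and 1.80. Klrk1, which encodes NKG2D, had a late difference of 0.88 that did not pass (adjusted p = 0.252). Of 14 measured NK receptors 2 rose, against 0.148% of all genes, the median was 0.43 and all 14 differences were above 0. The count was 0 when replicate 1 of either arm or replicate 2 of jak1i at 24 weeks was left out, and 4 without replicate 2 of jak3i.

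Among the chemokines, Ccl5 alone passed the threshold. Ccl5 draws T cells and is made by them. It stood in jak1i at 6.65, 7.82 and 6.69 at 12 weeks and 9.26 and 8.26 at 24 weeks, and in jak3i at 6.18, 6.90 and 7.44 and then 10.30 and 8.58. The difference of 2.15 (SE 0.37, adjusted p = 0.0216) is 4.45-fold, with a 95% interval from 2.61 to 7.58. The level remained below the start, at −1.45 (adjusted p = 0.0134), where PBS at 12 weeks had 10.61, 10.01 and 11.31.

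The CXCR3 ligands, which interferon gamma induces in keratinocytes and myeloid cells, had late differences as large but did not pass. Cxcl9 went from 8.69, 10.70 and 6.68 to 12.08 and 8.32 in jak1i and from 7.47, 8.08 and 9.78 to 12.69 and 9.52 in jak3i. Replicate 1 of each arm was high and replicate 2 lay within the 12-week range. The differences were 2.08 for Cxcl9 (adjusted p = 0.549), 1.90 for Cxcl10 (adjusted p = 0.577) and 2.19 for Cxcl11 (adjusted p = 0.442). The receptor Cxcr3 had 0.62 (adjusted p = 0.21) and Cxcr6, a receptor of tissue T cells, 1.28. Of 23 measured members of this list 1 rose, against 0.148% of all genes. The median was 0.66 and all 23 were above 0. At 24 weeks 5 members were still below the start, against 3.51% of all genes. Among them were Cxcl11 at −2.48 (adjusted p = 0.0331) and Ccr1, a receptor of myeloid cells, at −2.02 (adjusted p = 0.0181).

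The cytokine side of the loop showed no call in the late change. Ifng itself went from 4.14, 4.50 and 4.30 to 6.64 and 4.89 in jak1i and from 4.16, 3.84 and 5.02 to 7.14 and 4.48 in jak3i. Its difference of 1.46 was not past the threshold (adjusted p = 0.372), and the lower array of jak3i lay among the 12-week values. Tbx21, the transcription factor of interferon gamma producing cells, had 1.04 (adjusted p = 0.126), and Il2rb, the receptor chain shared by interleukins 2 and 15, had 1.01 (adjusted p = 0.0775). Of 19 measured cytokine and receptor genes 0 changed, with a median of 0.37. Il15 had a late difference of 0.37 (adjusted p = 0.692) and stood above the start at 24 weeks, at 0.66 (adjusted p = 0.027). The same held for Il7, a growth factor of T cells, at 0.91 (adjusted p = 0.0242).

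The kinases themselves showed no late call. The differences were 0.02 for Jak1, 0.36 for Jak2 and 0.10 for Jak3, and 0.66 for Socs1, a feedback inhibitor induced by interferon. Jak1 had 3 probe sets between −0.58 and 0.13, so its sign depended on the probe set. Of the 19 measured kinases, STAT factors and feedback genes 0 changed, with a median of 0.21.

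MHC class II genes rose late, and 4 of them stood above the start at 24 weeks. These molecules present peptides to helper T cells and are found on dendritic cells, macrophages and, under interferon gamma, on follicle cells. H2-Eb1, a beta chain, stood in jak1i at 11.86, 12.18 and 11.82 at 12 weeks and at 12.65 and 12.70 at 24 weeks. In jak3i it stood at 11.63, 11.98 and 11.74 and then at 13.11 and 12.56. The difference of 0.89 (SE 0.17, adjusted p = 0.0421) is 1.85-fold, without overlap in either arm. At 0 weeks the 6 arrays lay between 12.02 and 12.35, and the 24-week level exceeded this by 0.54 (adjusted p = 0.037).

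Cd74, the chaperone of class II molecules, went from 10.54, 10.97 and 10.51 to 12.02 and 11.45 in jak1i and from 10.46, 10.98 and 11.04 to 12.02 and 11.42 in jak3i. Its late difference was 0.98 (SE 0.20, adjusted p = 0.0455), and again no 24-week array fell within the 12-week range. The alpha chain H2-Aa had 0.73 (adjusted p = 0.0421) and H2-DMb2, part of the peptide exchange factor, 0.80 (adjusted p = 0.0216). H2-Ab1, H2-Ea and H2-DMa had 0.83, 0.98 and 0.98 and missed the threshold (adjusted p = 0.0913, 0.0987 and 0.0854).

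In all, 4 of 13 measured class II genes rose late, against 0.148% of all genes. The median was 0.80 and all 13 were above 0. Of these, 9 lay higher without overlap in both arms, against 3.3% of all genes. The number that rose was 0 without replicate 1 of either arm at 24 weeks, 1 without replicate 2 of jak1i, 9 without replicate 2 of jak3i and 2 with the hair keratin covariate. Above the start at 24 weeks were 4 members, against 12.1% of all genes: H2-Eb1, H2-DMb2, H2-Oa and H2-Ob. H2-Oa and H2-Ob form H2-O, which restrains peptide exchange in B cells and dendritic cells, and stood at 1.05 and 1.33 (adjusted p = 0.00259 and 0.00141). H2-Ob was already above the start at 12 weeks, at 0.52, so its course differed from the fall and return of Cd74, which was −0.46 at 12 weeks. Without 1 of the 24-week arrays the count of 4 was between 1 and 3.

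The upstream sequences of 2 class II genes that rose and of the interferon-induced chemokine Cxcl10 are shown because class II promoters are known for a Y box, the core CTGATTGG bound by NF-Y, whereas interferon-induced promoters are known for the ISRE core AAANNGAAA. They are the 250 bases before the start from RefSeq on GRCm38.p6, which is the reference strain and not C3H/HeJ, written 5′ to 3′ on the gene's strand. Capitals mark matches to these cores on either strand. They come from chr17:34305617-34305866 (H2-Eb1, plus strand), chr17:34287824-34288073 (H2-Aa, minus strand) and chr5:92348890-92349139 (Cxcl10, minus strand).
H2-Eb1: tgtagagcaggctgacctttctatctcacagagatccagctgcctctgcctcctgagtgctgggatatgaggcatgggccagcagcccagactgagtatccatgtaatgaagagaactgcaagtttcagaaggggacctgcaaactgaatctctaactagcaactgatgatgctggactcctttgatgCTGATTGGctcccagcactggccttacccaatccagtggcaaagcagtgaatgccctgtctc
H2-Aa: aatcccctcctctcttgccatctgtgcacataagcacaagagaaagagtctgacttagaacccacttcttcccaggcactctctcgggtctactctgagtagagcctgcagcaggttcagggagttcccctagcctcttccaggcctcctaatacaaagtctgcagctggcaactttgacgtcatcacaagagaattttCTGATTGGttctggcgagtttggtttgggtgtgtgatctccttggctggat
Cxcl10: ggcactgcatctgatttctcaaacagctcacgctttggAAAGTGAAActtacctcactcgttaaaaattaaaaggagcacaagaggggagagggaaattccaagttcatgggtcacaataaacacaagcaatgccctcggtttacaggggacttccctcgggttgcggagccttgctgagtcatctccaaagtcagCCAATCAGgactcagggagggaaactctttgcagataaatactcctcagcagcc

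The Y box began 62 bases before the start of H2-Eb1 and 51 before that of H2-Aa. In Cxcl10 it lay on the other strand, 54 bases before the start, with an ISRE core 212 bases before. H2-DMb2, another class II gene that rose, had 0 matches to the Y box. In Cntn1, which is no class II gene, a Y box lay at 1 of 3 start sites, 226 bases before. Of the 29 called genes 18 had a promoter in the table, at 21 start sites, and counting each gene at any of its sites the Y box was found in 3 (H2-Eb1, H2-Aa and Cntn1), the ISRE core in 1 and the GAS core TTCNNNGAA in 6. Searched on both strands in these windows with the 50 bases after the start added, the cores occur in 4.1%, 10.6% and 8.3% of 32851 promoters. A match is a description of letters, and the Y box was added to the search after values were seen.

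MHC class I genes, which show peptides to CD8 T cells, were higher at 24 than at 12 weeks in direction but without a call. Psmb9, an immunoproteasome subunit, went from 10.68, 10.61 and 9.85 to 11.74 and 11.02 in jak1i and from 10.16, 10.57 and 10.57 to 11.95 and 11.02 in jak3i. Its groups did not overlap, and its difference of 1.03 did not pass (adjusted p = 0.231). Tap1, the peptide transporter, had 0.83 (adjusted p = 0.16), Psmb8 0.85 and B2m, the light chain, 0.23. In the list 11 of 14 measured genes did not overlap in either arm, against 3.3% of all genes, while 0 of 14 passed the test, with a median of 0.64. H2-Bl, a class I gene outside the list, rose by 0.53 (SE 0.11, adjusted p = 0.0471).

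The interferon gamma response split the 24-week arrays. Gbp8, a guanylate-binding protein of host defence, went from 6.66, 7.37 and 4.24 to 10.42 and 6.69 in jak1i and from 5.86, 6.75 and 8.04 to 11.26 and 7.60 in jak3i. Replicate 1 of each arm was above all 12-week arrays and replicate 2 was within them, and the difference of 2.51 was not past the threshold (adjusted p = 0.374). Of 20 measured genes 0 rose, although the median of 1.07 was above that of 0.03 over all genes.

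The mean over this list, relative to the mean of the 31 arrays, was 0.90 and −0.95 for replicates 1 and 2 of jak1i at 24 weeks and 1.10 and −0.39 for those of jak3i. At 12 weeks it ranged from −1.96 to −0.35. The same arrays stood apart in the hair shaft keratin list, at 0.57 and −2.46 in jak1i and 0.04 and −2.09 in jak3i, where PBS at 12 weeks had 0.82, 0.71 and 2.05. With the hair keratin mean as a covariate the median late difference of the interferon gamma list was 1.02. The part of hair cycle state in this division was not tested.

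Type I interferon genes, which mark an antiviral state, parted by replicate at 24 weeks. Their list mean was 0.36 and −0.85 for replicates 1 and 2 of jak1i and 0.58 and −0.64 for those of jak3i. Mx1, an antiviral GTPase, had −2.37 at 12 weeks and −1.80 at 24 weeks against the start (adjusted p = 0.0119). At 24 weeks it stood at 7.66 and 5.91 in jak1i and at 7.99 and 5.95 in jak3i, against 7.22 to 9.24 at 0 weeks, so the replicate 1 arrays lay within the range of the start. Oasl2 and Rtp4 were at −1.65 and −1.19 (adjusted p = 0.0231 and 0.0331). Of 22 measured genes 21 were below the start at 12 weeks, against 15.4% of all genes, and 16 at 24 weeks, against 3.51%. The count of 16 was 0 without replicate 2 of either arm. In the late change 0 passed, with a median of 0.51.

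**Figure D2:**
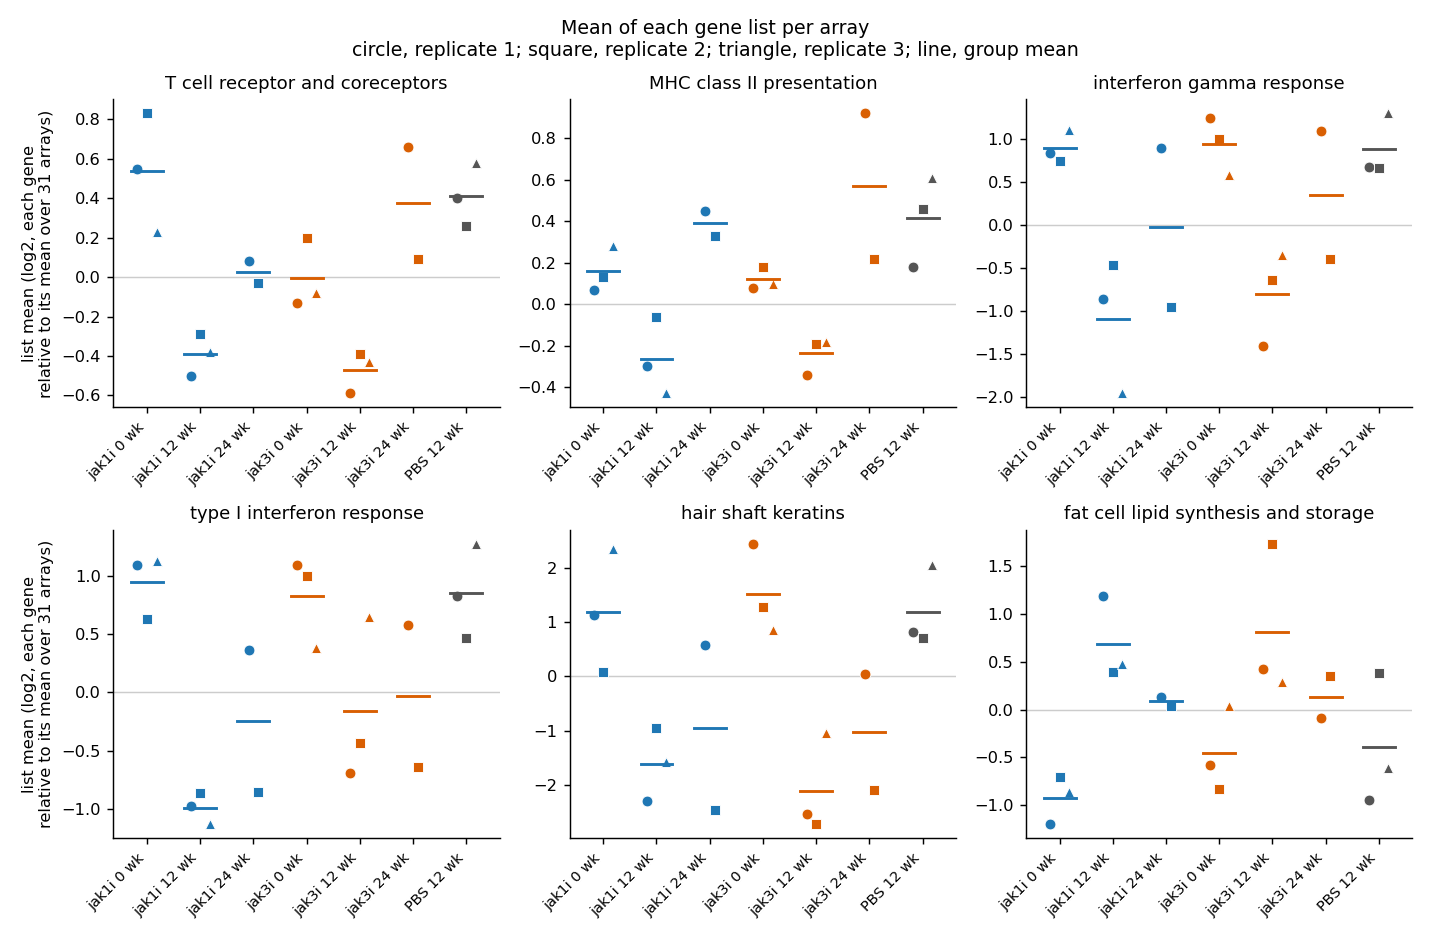
Mean log2 value of each of 6 gene lists relative to the mean of all 31 arrays (vertical axis) on each array, by arm and week (horizontal axis), with circle, square and triangle for replicates 1, 2 and 3 and a line at the group mean. At 24 weeks the interferon and hair keratin lists part by replicate, with hair keratins at 0.57 and 0.04 for replicate 1 and −2.46 and −2.09 for replicate 2, while the class II list lies between 0.22 and 0.92 on all 4 arrays.

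Checkpoint and regulatory T cell genes gave no late call among 16 measured, with a median of 0.34. Foxp3, which defines regulatory T cells, had 0.21 (adjusted p = 0.701), and the checkpoint ligands Pdcd1lg2 and Cd274 had 1.31 and 0.93. Among 16 dendritic and Langerhans cell genes 0 passed late, with a median of 0.44. Itgae, the CD103 chain that holds T cells and dendritic cells in epithelium, had 1.25 (adjusted p = 0.0697) and Ly75, an uptake receptor, 1.12 (adjusted p = 0.0879). At 24 weeks 4 of the 16 were above the start, against 12.1% of all genes. The count was 2 without replicate 2 of either arm. Among the 4 was Cd207, the langerin of Langerhans cells, at 1.15 (adjusted p = 0.0121). Macrophage genes had a median of 0.22 with 0 of 22 called, where Aif1 had 0.82 and Adgre1, the F4/80 antigen, 0.66. B and plasma cell genes had a median of 0.21 with 0 of 15 called, and neutrophil genes one of 0.10 with 0 of 23.

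Hair genes gave no late call, and the 24-week arrays of each arm lay far apart in them. Krtap15, a keratin-associated protein of the hair shaft, went from 6.64, 8.97 and 5.68 to 11.59 and 6.36 in jak1i and from 5.89, 4.11 and 9.49 to 10.75 and 6.91 in jak3i. In each arm 1 array at 24 weeks was above all at 12 weeks and 1 was among them, and PBS at 12 weeks had 11.89, 11.66 and 13.41. The difference of 2.11 was not past the threshold (adjusted p = 0.769). Over the lists 0 of 16 hair keratins, 0 of 32 keratin-associated proteins and 0 of 17 inner root sheath genes passed late, with medians of 1.06, 1.64 and 0.92.

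Against the start, 13 of the 16 hair keratins, 31 of the 32 keratin-associated proteins and 13 of the 17 inner root sheath genes were lower at 12 weeks. Of all genes 15.4% were lower then. At 24 weeks the counts were 0, 1 and 0, against 3.51% of all genes, with medians of −2.76, −3.13 and −1.84. Without replicate 1 of jak1i at 24 weeks they were 8, 20 and 4. Without replicate 1 of jak3i they were 4, 6 and 1.

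The lists of terminal differentiation and stressed epidermis gave no late call. Krt2, a keratin of the upper epidermis, went in opposite directions in the arms. It stood at 4.10, 3.95 and 3.93 and then at 5.0 and 10.06 in jak1i, and at 8.76, 5.45 and 6.95 and then at 3.95 and 3.75 in jak3i. The groups did not overlap in either arm, and the difference between the arms of −6.74 (SE 1.28) was not past the threshold over all genes (adjusted p = 0.475). Of 35 measured genes of terminal differentiation 0 passed late, with a median of 0.14. In the list of stressed epidermis 0 of 20 passed late, and the medians were 1.16 in jak1i and −0.18 in jak3i. Krt6b and Krt16, keratins of wounded epidermis and the follicle, were below the start at 24 weeks, at −3.18 and −2.08.

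Fat genes, which were high at 12 weeks, lay lower at 24 weeks in direction. All 24 measured genes of lipid synthesis and storage rose from 0 to 12 weeks, against 20.8% of all genes. At 24 weeks 3 of 24 were above the start, a share near the 12.1% of all genes. In the late change 0 of 24 passed, and all 24 differences were below 0 with a median of −0.61. Thrsp, a regulator of lipid synthesis, went from 11.64, 10.95 and 9.51 to 8.79 and 8.54 in jak1i and from 10.92, 12.94 and 9.67 to 9.37 and 8.67 in jak3i. Its 24-week arrays lay below the 12-week arrays in both arms, and its difference of −2.09 did not pass (adjusted p = 0.543). The differences of its 3 probe sets ran from −2.09 to −0.01. Agpat2, an enzyme of triglyceride synthesis, had −1.14. In the list 7 of 24 genes lay lower without overlap in both arms, against 1.62% of all genes. The adipokine Adipoq stayed above the start, at 2.82 at 12 weeks and 2.25 at 24 weeks (adjusted p = 0.0205).

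Sebaceous gland genes had a late median of −0.20 with 0 of 21 called, and 4 of 21 were above the start at 24 weeks, against 12.1% of all genes, where Scd1, a desaturase of fat and sebum, stood at 0.76 (adjusted p = 0.0271). Clock genes also lay lower in direction: Dbp, an output of the circadian clock, had −1.72 (adjusted p = 0.468) and Per2 −1.64, while Arntl, which peaks opposite to them, had 0.74 on the probe set used and −0.02 on its other one. Of 19 clock genes 0 passed, and 5 lay lower without overlap in both arms, against 1.62% of all genes. No source used here gives the hour of sampling. Endothelial genes had late medians of 0.13 in jak1i and −0.84 in jak3i with 0 of 28 called, and Aplnr, a receptor of vessel growth, had −0.22 and −2.29.

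The largest set of changes had arisen by 12 weeks, and fewer genes passed against the start at 24 weeks. How many genes passed at both times was not counted. From 0 to 12 weeks 3780 genes rose (20.8%) and 2808 fell (15.4%). With each array centred on its median the split was 3066 and 3759. At 24 weeks 2209 genes were above the start (12.1%) and 638 below (3.51%), or 2847 in all. That total was 103 without replicate 2 of jak1i at 24 weeks, 146 without replicate 2 of jak3i at 24 weeks, 1839 without replicate 1 of jak1i at 0 weeks and 1594 without replicate 2 of jak3i at 0 weeks. These comparisons share arrays with each other and with the late change, and their values are given side by side for that reason.

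Genes of fibroblasts and bulge stem cells kept values close to those of 12 weeks. Clearance genes lay lower in direction, with a late median of −0.29, 15 of 22 differences below 0 and 0 called. Lum, a matrix proteoglycan, was at 1.48 and 1.40 against the start at 12 and 24 weeks. Krt15, a bulge keratin, was at 1.63 and 1.29, and Fgf18, a signal of the resting follicle, at 2.59 and 2.12. Scgb1a1, a secretoglobin, was at 3.73 and 3.25, and Cyp2e1, a cytochrome enzyme of drug metabolism, at 4.01 and 3.19. By list, 12 of 19 fibroblast genes were above the start at 12 weeks and 11 at 24 weeks, and for bulge genes the counts were 10 and 9 of 20. Of 22 clearance genes 14 and then 12 were above. Of all genes 20.8% and 12.1% were above the start at these times. Mitotic genes moved the other way: 22 of 31 were below the start at 12 weeks and 13 at 24 weeks, against 15.4% and 3.51% of all genes. Mki67 was at −0.87 and −1.03 and the topoisomerase gene Top2a at −0.85 and −1.0.

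The counts at 24 weeks against the start rested on the replicate 2 arrays, whose hair keratins were low. Without replicate 2 of jak1i, and equally without that of jak3i, 0 type I interferon, 0 mitotic, 0 fibroblast and 0 bulge genes passed at 24 weeks against the start, and 1 clearance gene did. Leaving out either of these arrays also left 0 of the 2 T cell coreceptors, the 5 chemokine genes and the 4 genes of stressed epidermis below the start, and 0 of the 3 fat, 4 sebaceous and 2 cytokine genes above it. Without replicate 1 of jak1i or of jak3i the counts were 19 and 20 for type I interferon genes, 23 and 26 for mitotic genes and 11 and 10 for fibroblast genes. With the hair keratin mean as a covariate all of these counts were 0, apart from 1 clearance gene. That covariate was itself lower at 12 weeks in the inhibitor arms than at the start. With it the calls at 12 weeks against the start went from 6588 to 384, and of the T cell and cytotoxic lists 8 members each still passed below the start.

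**Figure D3:**
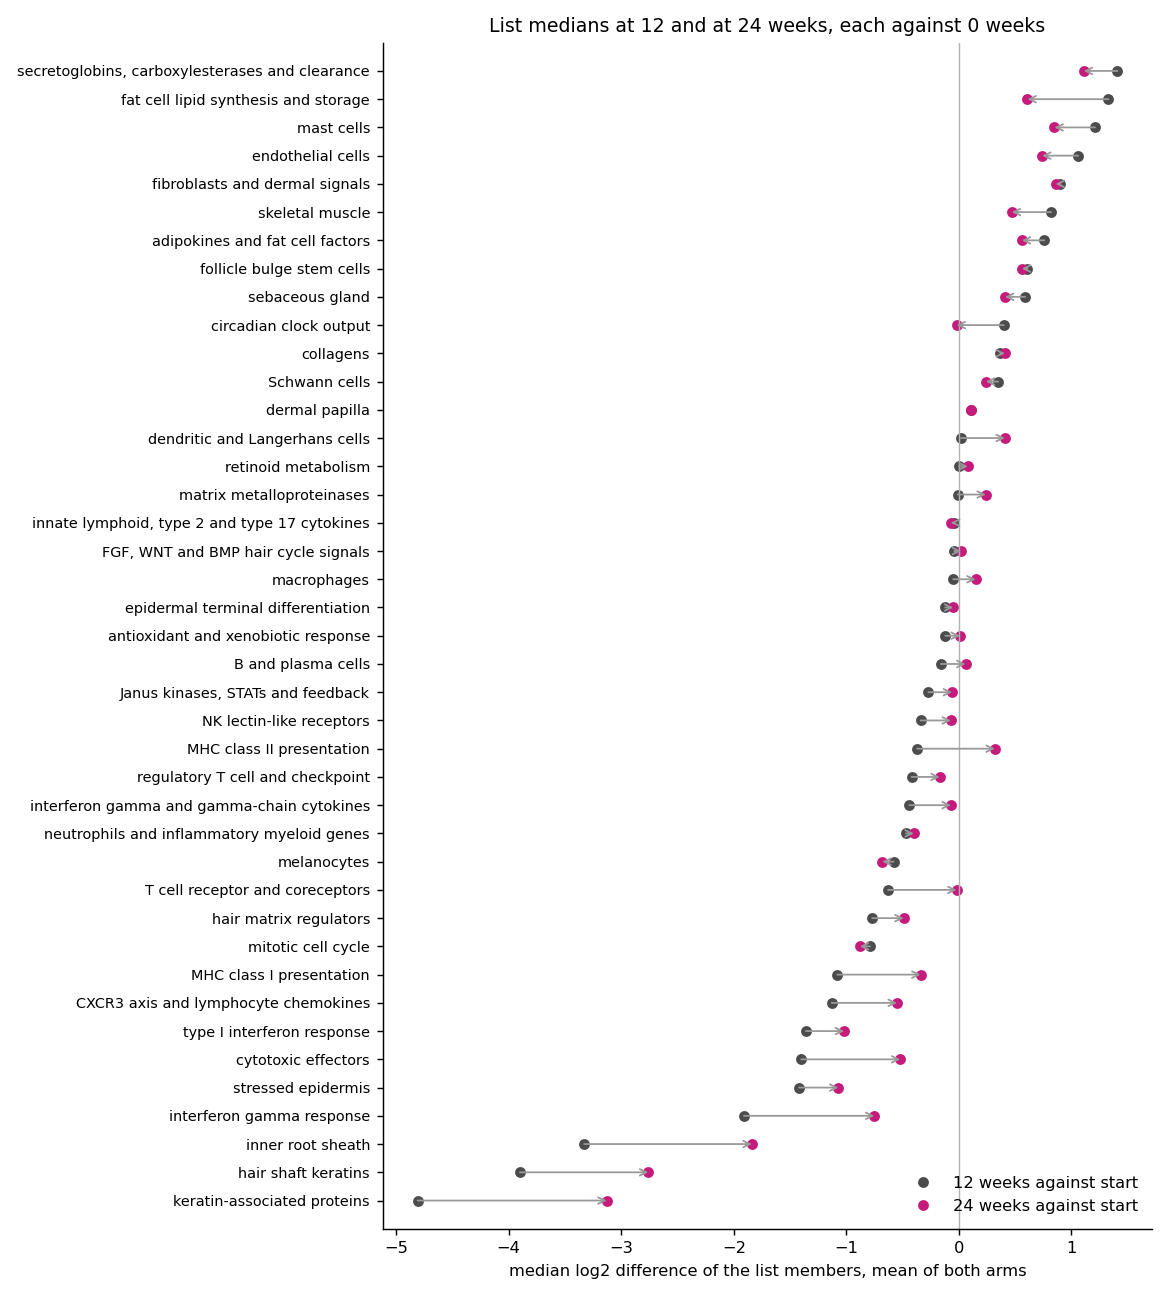
Median log2 difference from the start (horizontal axis) for 41 gene lists (vertical axis), with grey points for 12 weeks, pink points for 24 weeks and an arrow from 12 to 24 weeks, as the mean of both arms. The T cell list moves from −0.63 to −0.02 and the class II list from −0.37 to 0.32, while mitotic genes stay near −0.79 and −0.88 and fibroblast genes near 0.90 and 0.86.

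Some called genes belonged to no immune list. Cntn1, an adhesion molecule known from neurons, stood in jak1i at 6.63, 7.10 and 7.21 at 12 weeks and at 7.98 and 7.91 at 24 weeks, and in jak3i at 6.94, 6.68 and 7.25 and then at 8.08 and 8.22. It changed by 1.08 (SE 0.22, adjusted p = 0.0471) on the probe set with the highest mean. The late differences of its 3 probe sets ran from 0.07 to 1.08, and 0 passed when all probe sets were tested. At 0 weeks all 6 arrays lay between 6.61 and 6.88, and PBS at 12 weeks had 7.07, 7.55 and 6.63. Its difference from the start was 0.23 at 12 weeks, not past the threshold, and 1.32 at 24 weeks (adjusted p = 0.00218). Nupr1, a stress-response factor, rose by 0.63, Rab19, a small GTPase, by 0.69, Scg5, a chaperone of neuroendocrine cells, by 0.54, Jakmip1, a binding partner of Janus kinases, by 0.57 and Cdh17, a cadherin, by 0.73. Their adjusted p lay between 0.038 and 0.0471. The late differences of the 4 probe sets of Jakmip1 ran from 0.03 to 0.57, and 1 passed when all probe sets were tested. The 2 probe sets of Nupr1 had 0.63 and 0.66, and 0 passed in that test.

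The 2 genes that fell were Prrc2c, a protein of stress granules, and Cdc37l1, a cochaperone of HSP90. Prrc2c went from 10.87, 10.87 and 10.84 to 10.38 and 10.02 in jak1i and from 10.45, 10.41 and 10.60 to 10.24 and 9.45 in jak3i, a difference of −0.65 (SE 0.13, adjusted p = 0.0471). Cdc37l1 went from 9.56, 9.58 and 9.42 to 9.09 and 9.0 and from 9.31, 9.20 and 9.22 to 8.87 and 8.63, a difference of −0.48 (SE 0.09, adjusted p = 0.0421). Neither overlapped, but each had 6 probe sets whose differences reached above 0, to 0.06 and 0.08. These falls therefore hold for the probe set with the highest mean. When all probe sets were tested, 0 of Prrc2c and 1 of Cdc37l1 passed.

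**Figure D4:**
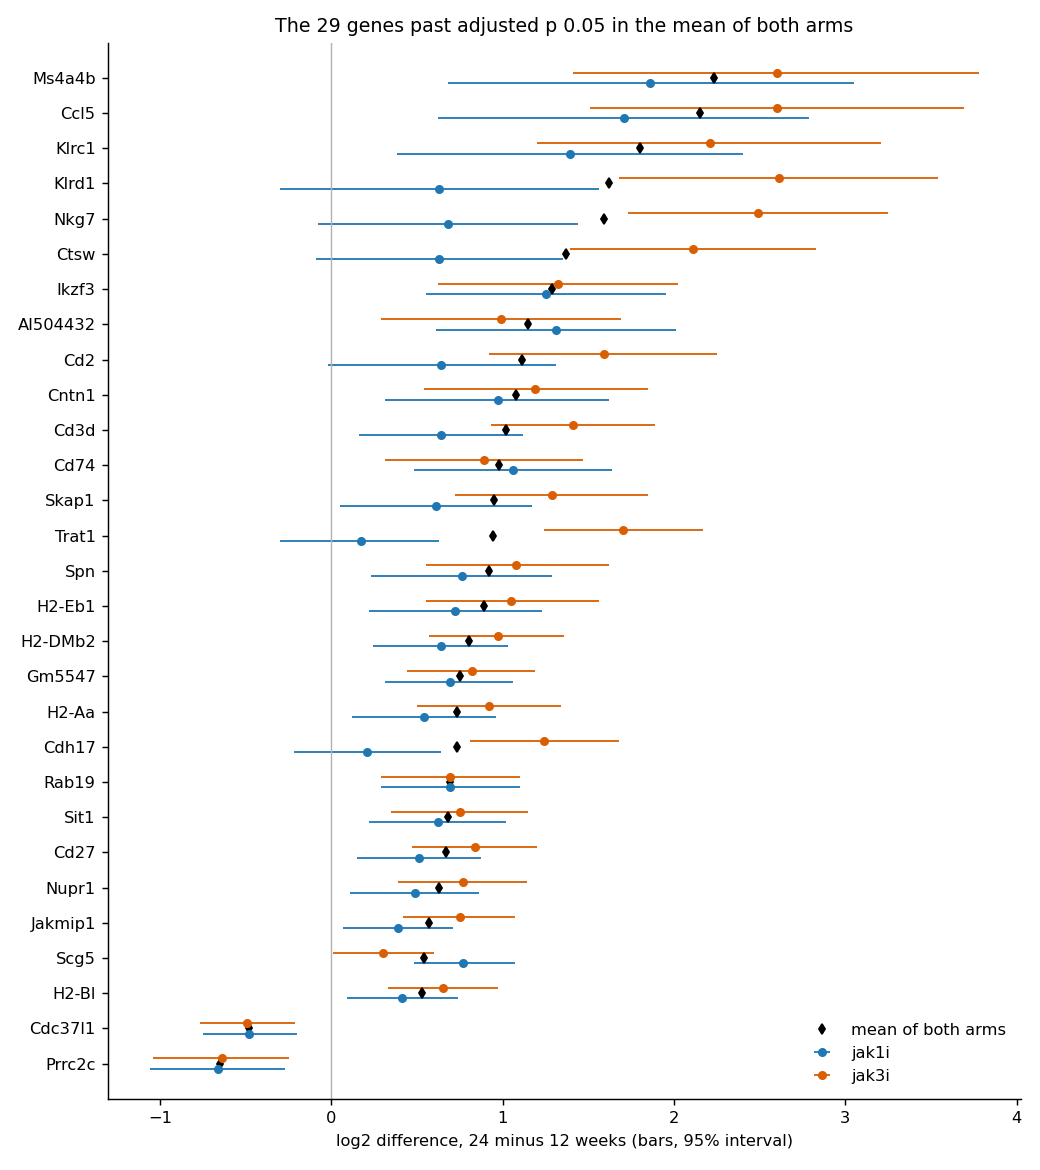
Late change in log2 units (horizontal axis) of the 29 called genes (vertical axis) in jak1i and in jak3i, with bars for the 95% interval and a black diamond for the mean of both arms. The jak3i value of Trat1 is 1.70 and its jak1i value 0.17, while for Cntn1 and Cd74 the arms lie close together.

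Taken alone, jak1i gave 0 calls (0%) between 12 and 24 weeks, with 610 genes at an unadjusted p under 0.05 and a smallest adjusted p of 0.333, that of Scg5. In jak3i 6 genes rose (0.033%) and 0 fell (0%): Klrd1 by 2.61, Nkg7 by 2.49, Ctsw by 2.11, Trat1 by 1.70, Cd3d by 1.41 and Cdh17 by 1.24. Trat1 stood at 3.47, 4.09 and 3.85 at 12 weeks and at 5.50 and 5.52 at 24 weeks, which is the least spread among the 24-week pairs of these genes. These levels were low, below 6.18, the median of all values. Its other probe set had a late difference of 0.19 over both arms. With dim genes left out, 4 genes were called in jak3i. The count in jak3i was 0 without its replicate 1 at 24 weeks, 31 without its replicate 2 at 24 weeks, and 1 and 2 without replicates 1 and 3 at 12 weeks. In jak1i it was 3 and 1 without replicates 1 and 2 at 24 weeks.

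The difference between the arms, tested directly, gave 0 calls (0%), with 274 genes at an unadjusted p under 0.05 and a smallest adjusted p of 0.475. For Trat1 the late change in jak3i exceeded that in jak1i by 1.54, with a 95% interval from 0.88 to 2.19 and an adjusted p of 0.638 over all genes. For Ifng the difference was 0.02, with an interval from −1.95 to 1.99, so a difference of several fold in either direction was not resolved. Both compounds are known by code alone, and no dose allows a matched comparison.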

How the data were processed

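Total RNA of skin was labelled with biotin and hybridised to Affymetrix arrays, per the labels' protocols. The authors deposited log2 values, processed with RMA per the submitters' processing notes. RMA subtracts background, gives all arrays the same distribution and combines the probes of a probe set, so a shift common to all genes is removed. The RMA version was not given in the sources used here. The values ran from 2.59 to 14.69, with array medians from 6.05 to 6.24, and no value was missing. The number of arrays limits the precision. Weeks were read from the W in the sample titles, and scan dates were not used here.

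Of 45101 probe sets, 34958 were given 1 gene symbol by the platform annotation, 932 several and 9211 none. Each of 18193 genes was represented by the probe set whose mean over the 31 arrays was highest. A model of 11 group means was fitted to the 31 arrays with limma 3.58.1 in R 4.3.3 (20 residual and 2.5 prior degrees of freedom), p-values were adjusted by Benjamini-Hochberg over all genes, and an adjusted p under 0.05 counted as a change. On simulated data the late change recovered 90 of 100 genes changed by log2 1 and 99 of 100 changed by log2 2. There were 11 calls among unchanged genes of the 18193. The simulated noise was independent between genes and arrays, without the split by replicate seen in the real arrays. These shares therefore do not tell how many real changes were missed, and a gene not called is not shown to be unchanged.

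The members, the 41 gene lists and the tests were chosen with earlier results of these data known, so counts within lists are descriptions. Genes were named by rule: the 12 largest changes in each direction among called genes without overlap in both arms, filled by the smallest p, 3 in each direction for each arm and for the arm difference, the 3 largest in each list, and a short fixed list of genes of kinases, interferon, killing and hair. Other genes named were chosen after their values were seen, as were the Y box and the counts of list members under other settings. Other settings were array centring, a filter on dim genes (12825 genes left), the mean of all probe sets, a trended and robust variance, the compared arrays alone, the replicate number as a block, each array left out in turn, and the hair keratin or the muscle list mean as a covariate.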

Additional observations from a re-analysis of the deposited data

Results flagged for a closer look

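In 3 of the named genes every array of jak1i moved one way between 12 and 24 weeks and every array of jak3i the other way, although the test of the difference between the arms did not pass for any of them. The late change in jak3i minus that in jak1i was −6.74 for Krt2 (95% interval −9.39 to −4.09), with late changes of 3.54 in jak1i and −3.20 in jak3i. Krt2 stood at 10.06 on 1 jak1i array at 24 weeks and at 8.76 on 1 jak3i array at 12 weeks, and between 3.70 and 4.67 on the 0-week arrays of both arms.

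For Slfn4, a Schlafen gene of myeloid cells, the difference was −4.13 (95% interval −6.14 to −2.12), from 7.13, 7.22 and 8.08 to 8.90 and 8.09 in jak1i and from 9.65, 9.76 and 12.29 to 8.03 and 6.88 in jak3i. For Hc, which encodes complement component C5, it was −1.83 (95% interval −2.74 to −0.92), with 1.15 in jak1i and −0.68 in jak3i. These genes were picked for the opposite directions, so the intervals describe them and are no test.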

How the results depend on the processing

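The late change of both arms gave 29 calls, and 3 with the compared arrays only, 0 with the replicate block and 11 with the hair keratin covariate. The deviations of same-numbered arrays from their group means correlated at −0.323 and −0.445 in jak1i and at −0.437 and 0.154 in jak3i. These correlations cannot decide whether the arrays pair, since the deviations of the 24-week arrays of an arm mirror each other. Whether same-numbered arrays came from the same mice is not known, so the block is given as an alternative fit. Leaving out 1 array gave 0 to 92 calls. In jak1i the calls stayed at 0 in every processing setting and were 0 to 3 with 1 array left out. In jak3i the 6 calls were 0 with the compared arrays only and 3 with the replicate block, and 0 to 31 with 1 array left out. The arm difference stayed at 0 calls in every processing setting and gave 0 to 1 with 1 array left out. The 6588 calls at 12 weeks against the start were 384 with the hair keratin covariate, 6018 with the replicate block, and 5116 to 6292 with 1 array left out. The 2847 calls at 24 weeks against the start were 1804 with the compared arrays only, 262 with the hair keratin covariate, 2006 with the replicate block, and 103 to 3420 with 1 array left out. The cause of these shifts in the counts was not tested.

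Of 227 values of the 29 called genes in processing settings 130 stayed past the threshold and 97 did not, and of 290 values with 1 array left out 76 did and 214 did not, all in the same direction. Among genes not past it the sign turned for Jak1 (−0.14 with the mean of probe sets, −0.02 without replicate 1 of jak1i at 12 weeks, −0.05 without replicate 2 of jak1i at 24 weeks and −0.01 without replicate 1 of jak3i at 24 weeks), Krt2 (−1.10 without replicate 2 of jak1i at 24 weeks and −0.23 without replicate 2 of jak3i at 12 weeks), Mki67 (0.09 and 0.19 without replicate 2 of jak1i or jak3i at 24 weeks) and Hc (−0.03 without replicate 2 of jak1i at 24 weeks). With any 1 array left out the values of Jak1, Krt2, Mki67 and Hc ran from −0.05 to 0.09, −1.10 to 1.43, −0.52 to 0.19 and −0.03 to 0.50. Of 451 list medians 449 moved by less than the spread between replicates. That spread was wide in lists that part by replicate, so the count does not show steady medians. With 1 array left out the median ran from 0.39 to 2.96 for keratin-associated proteins. For macrophage and mitotic genes it turned sign, from −0.04 to 0.51 and from −0.29 to 0.19. The T cell and class II medians stayed above 0, at 0.46 to 0.78 and 0.65 to 0.96.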

Other observations

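Mast cell genes, which lie outside the immune lists above, rose from 0 to 12 weeks. Of 13 measured, 8 were above the start at 12 weeks and 5 at 24 weeks, against 20.8% and 12.1% of all genes. In the late change 0 passed, with a median of −0.25. The count at 24 weeks was 0 without replicate 2 of jak1i or of jak3i and 3 without replicate 1 of jak1i. Cpa3, a mast cell protease, was at 2.52 and 2.26 against the start at 12 and 24 weeks, Mrgprb1, a receptor of the same family of cells, at 2.61 and 2.36, and Cma1, a chymase, at 2.33 and 1.93. On single arrays Cpa3 stood between 10.10 and 11.69 at 12 weeks and between 10.33 and 11.02 at 24 weeks, against 7.10 to 10.64 at 0 weeks and 8.81, 10.78 and 9.24 on the PBS arrays at 12 weeks.

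Skeletal muscle genes, which belong to the muscle layer under the skin, had a late median of −0.30 with 0 of 31 called. Their list mean stood at −5.34, −2.72 and −4.07 on the PBS arrays at 12 weeks and between −0.28 and 1.69 on the inhibitor arrays at 12 and 24 weeks.

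Of 10092 probe sets without a single gene name, 9 passed in the late change, 3 higher and 6 lower.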
